A study of Mus musculus with 18 samples.

Results

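The TGF-beta genes described here are 9 genes taken by name from the 30452 genes of the count table, and all 9 were found. They are the ligands Tgfb1, Tgfb2 and Tgfb3, the receptors Tgfbr1, Tgfbr2 and Tgfbr3, the latency protein Ltbp1, the signal carrier Smad3 and the inhibitor Smad7. All 9 were among the 11936 genes tested, which had an FPKM (fragments scaled to transcript length and to library size) of at least 1 in at least 3 libraries. The RNA came from MC3T3-E1, a mouse cell line of osteoblast precursors, grown for 5 days on discs of a fibre membrane. The 6 groups of 3 libraries were PLLA/ZnO@Col +US, PLLA/ZnO@Col -US, PLLA/ZnO +US, PLLA/ZnO -US, PLLA +US and PLLA -US. PLLA is poly(L-lactic acid), a degradable polyester, ZnO is zinc oxide, Col is collagen by the study's title, and US is ultrasound given for 10 min every day. All groups share the cell line and the PLLA base, and there was no group on collagen without zinc oxide and none on culture plastic. Whether each library had its own culture is not in the labels, and the p-values speak only to the variation among the libraries sequenced, which may be technical.

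TGF-beta is secreted as an inactive precursor, held by its own propeptide and tied to the matrix through latent binding proteins such as Ltbp1. Integrins, proteases and other matrix proteins release it. The free ligand brings together the type II receptor Tgfbr2 and the type I receptor Tgfbr1, often after capture by the co-receptor betaglycan (Tgfbr3). The type I receptor then phosphorylates Smad2 and Smad3, which enter the nucleus with Smad4, and Smad7 is a target gene whose protein blocks the type I receptor. In bone, TGF-beta is stored in the matrix laid down by osteoblasts and is known for recruiting osteoblast precursors and for restraining their late differentiation.

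Total counts ran between 48307580 and 78039543 per library. Of 7 osteoblast markers, Runx2, Col1a1 and Spp1 passed the filter on low values, while Sp7, Alpl, Bglap and Ibsp stayed below it, at no more than 0.746 FPKM. Endothelial markers summed to at most 0.256 FPKM and epithelial ones to at most 0.231 FPKM. Chondrocyte markers summed to 13.5 to 26.7 FPKM, with 1 of 4 past the filter. The 4 mesenchymal surface markers, Thy1 among them, summed to 27.5 to 56.7 FPKM over the 18 libraries. Macrophage markers summed to 6.499 to 36.1 FPKM, mostly from Lyz2, with the defining genes Ptprc and Adgre1 below 0.1 FPKM in every library. Several libraries stood apart. On PLLA/ZnO@Col, +US replicate 1 and -US replicates 1 and 3 had 3.12, 1.68 and 2.48 CPM (counts scaled to the library total) over 4 Y-linked genes, and their surface antigen Thy1 was at 0.116, 0.0709 and 0.128 FPKM. Among the +US libraries, replicates 2 and 3 on PLLA/ZnO@Col had 41.7 and 46.9 CPM of these genes, replicate 3 on PLLA/ZnO had 19.2 and replicate 3 on PLLA had 37.9, and the other 11 libraries of the study had 81.7 to 154 CPM. Below, the 3 libraries are called Y-poor and the 4 libraries Y-reduced, and values are also given without them where they differ. In bulk RNA, fewer cells of a type and less RNA per cell cannot be told apart.

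The 250 bases before the annotated start are shown for Tgfb1, the member with the smallest p in any comparison, and for Smad3 and Ltbp1. Smad3 and Ltbp1 were higher in every PLLA/ZnO@Col +US library than in every PLLA/ZnO +US library. Both were uncalled there and overlapped PLLA +US. The windows are RefSeq sequences of GRCm38.p6, on the strand of the gene, from chr7:25686752-25687001 (plus), chr9:63757995-63758244 (minus) and chr17:75005279-75005528 (plus). A window was in the table for 6 of the 9 genes. Both strands were searched for the SMAD box CAGAC and the AP-1 site TGANTCA, and matches are in capitals.
Tgfb1: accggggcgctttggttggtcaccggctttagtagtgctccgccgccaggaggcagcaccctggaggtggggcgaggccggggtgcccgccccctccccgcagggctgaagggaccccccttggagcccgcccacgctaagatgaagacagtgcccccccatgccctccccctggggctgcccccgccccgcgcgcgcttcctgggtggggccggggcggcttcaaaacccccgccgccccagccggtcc
Smad3: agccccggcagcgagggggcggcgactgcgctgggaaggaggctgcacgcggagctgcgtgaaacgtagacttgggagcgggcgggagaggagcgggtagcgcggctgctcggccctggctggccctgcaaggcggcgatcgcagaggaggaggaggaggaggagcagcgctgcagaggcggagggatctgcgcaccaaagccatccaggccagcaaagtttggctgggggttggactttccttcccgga
Ltbp1: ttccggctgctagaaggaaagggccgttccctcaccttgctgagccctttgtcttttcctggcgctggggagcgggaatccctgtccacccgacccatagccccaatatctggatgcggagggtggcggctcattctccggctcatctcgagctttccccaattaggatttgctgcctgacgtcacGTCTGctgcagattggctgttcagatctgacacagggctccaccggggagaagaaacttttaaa
The windows of Tgfb1 and Smad3 held neither motif. The window of Ltbp1 held 1 SMAD box, on the reverse strand and so read as GTCTG, with its first base at -64. That position counts from the RefSeq start, which for Ltbp1 lies 39 bases before the start in the deposited table. Among 32851 windows of this length, 42.2% held CAGAC and 6.75% held TGANTCA, so a single SMAD box is common. The windows were 75.2% G and C in Tgfb1, 69.2% in Smad3 and 56.8% in Ltbp1.

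Among the ligands, Tgfb3 was the most abundant transcript per length in every library. Its level lay between 16.7 and 30.3 FPKM, with a median of 23.8 (ENSMUSG00000021253, chr12:86056745-86079041, minus strand). Tgfb1 lay between 6.34 and 14.1 FPKM, with a median of 8.07 (ENSMUSG00000002603, chr7:25687002-25705077, plus strand). Tgfb2 lay between 0.710 and 1.63 FPKM, with a median of 1.24, and rested on 257 to 822 counts a library (ENSMUSG00000039239, chr1:186622792-186705989, minus strand). As a share of the summed FPKM of the 3 ligands, Tgfb3 made up 56.0 to 74.8%, Tgfb1 20.8 to 38.9% and Tgfb2 1.83 to 5.65%. The receptors were led by Tgfbr3, the co-receptor, in most libraries. Tgfbr3 spanned 13.4 to 66.4 FPKM (ENSMUSG00000029287, chr5:107106570-107289629, minus strand), Tgfbr2 18.7 to 31.1 FPKM (ENSMUSG00000032440, chr9:116084293-116175360, minus strand) and Tgfbr1 1.03 to 12.5 FPKM (ENSMUSG00000007613, chr4:47353222-47414931, plus strand). Tgfbr1 made up 1.83 to 12.6% of the 3 receptors' summed FPKM and was the lowest of them in every library. Ltbp1, which ties the latent complex to the matrix, had the highest median of all 9 genes, 46.0 FPKM, with a range of 33.6 to 62.7 (ENSMUSG00000001870, chr17:75005568-75392512, plus strand). Smad3 spanned 15.2 to 25.1 FPKM (ENSMUSG00000032402, chr9:63646767-63757994, minus strand) and Smad7 3.64 to 8.64 FPKM (ENSMUSG00000025880, chr18:75367529-75395935, plus strand). The highest library exceeded the lowest 12.2-fold for Tgfbr1, 4.96-fold for Tgfbr3 and 2.38-fold for Smad7, and 1.66-fold for Smad3 and Tgfbr2. Coordinates are those of the deposited table, on GRCm38.

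**Figure D1:**
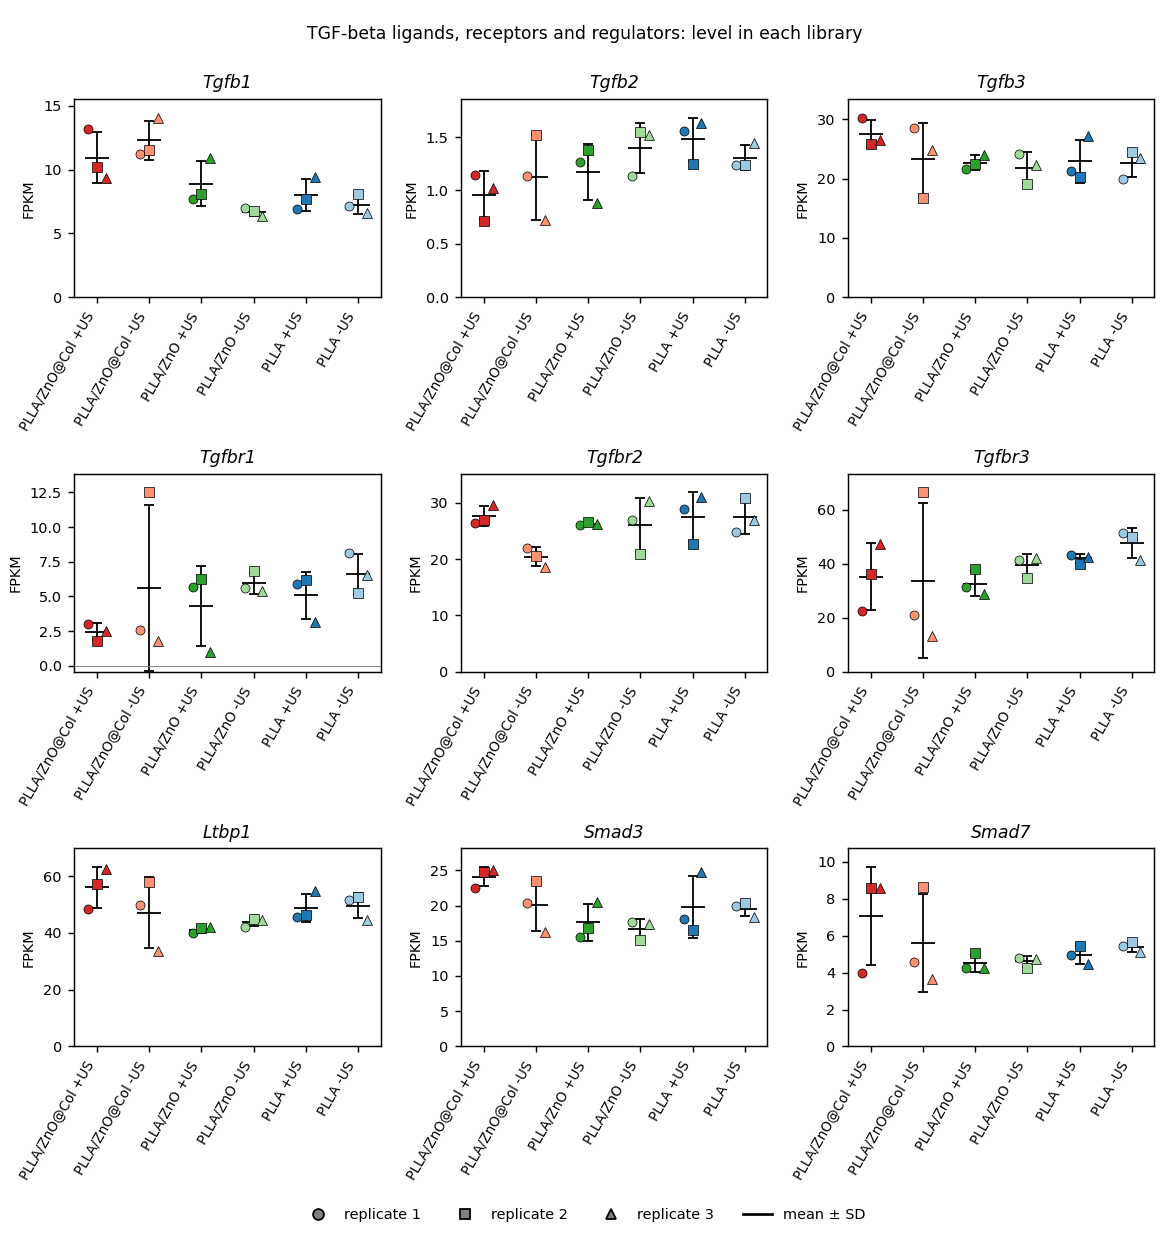
Level of each of the 9 genes in every library, in FPKM on linear axes, with the 6 groups from left to right and the replicate number as the marker shape. Black bars are the mean ± SD of 3 libraries. Tgfb1 sits at 11.2 to 14.1 FPKM on PLLA/ZnO@Col without ultrasound, above every PLLA/ZnO -US library, while Tgfbr1 and Tgfbr3 of PLLA/ZnO@Col -US are spread by replicate 2.

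**Figure D2:**
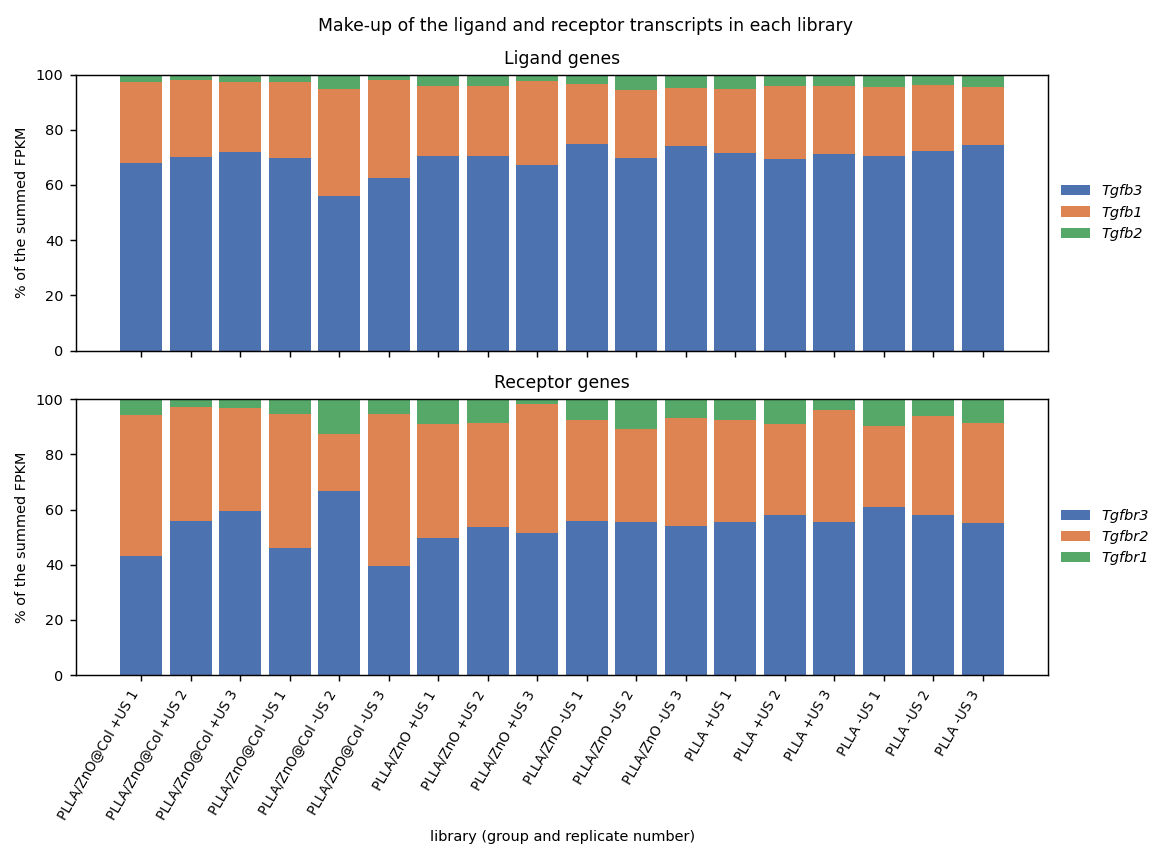
Share of each ligand gene (upper bars) and each receptor gene (lower bars) in the summed FPKM of its trio, in percent, 1 bar per library. Tgfb3 is the largest ligand share in all 18 libraries, and the Tgfb1 share is highest, at 38.9%, in PLLA/ZnO@Col -US replicate 2.

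The collagen membrane was compared with PLLA/ZnO without ultrasound. Tgfb1 was the member that stood out, with 11.2, 11.6 and 14.1 FPKM on PLLA/ZnO@Col -US, against 7.005, 6.71 and 6.34 FPKM on PLLA/ZnO -US. Every PLLA/ZnO@Col library lay above every PLLA/ZnO library. Here and below, such gaps between groups of 3 libraries are described only, as their share over all genes was not counted. The group means were 12.3 ± 1.55 and 6.69 ± 0.331 FPKM (SD, n = 3 each), and the log2 fold change was 0.91 with an SE of 0.17 and an unadjusted p of 5.64e-05. After Benjamini-Hochberg adjustment over 11936 genes the p of edgeR's quasi-likelihood test was 0.0673, so Tgfb1 was not called at 0.05. No gene had a smaller adjusted p in this comparison. The adjustment gives tied values, however, and genes with a smaller unadjusted p than Tgfb1 shared this one. DESeq2 gave Tgfb1 an adjusted p of 0.000181. Replicate 2, the library of its group that was not Y-poor, had 11.6 FPKM of Tgfb1, and without the 3 Y-poor libraries the log2 fold change was 0.76 (adjusted p = 0.085, with 1 PLLA/ZnO@Col -US library, assumed to vary like the other groups). Without replicate 2 it was 0.98, with an adjusted p of 0.0112. The Tgfb1 share of the ligand transcripts was 34.0 ± 5.91% on PLLA/ZnO@Col -US and 22.4 ± 1.87% on PLLA/ZnO -US (SD, n = 3 each).

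In the same comparison edgeR called no gene, 0% of the 11936, and no member, whereas DESeq2 called 256 higher and 151 lower, with Tgfb1 the only member. At an unadjusted p under 0.05, 2 of the 9 members passed, Tgfb1 and Tgfbr2, against 12.9% of all genes. Tgfbr2, the receptor that binds the ligand, had 22.0, 20.5 and 18.7 FPKM on PLLA/ZnO@Col -US, against 27.0, 21.0 and 30.4 FPKM on PLLA/ZnO -US. Its log2 fold change was -0.32 with an SE of 0.15 (edgeR adjusted p = 0.366), and the highest PLLA/ZnO@Col library overlapped the lowest PLLA/ZnO library. Smad3 had 20.4, 23.5 and 16.2 FPKM on PLLA/ZnO@Col -US, against 17.7, 15.2 and 17.3 FPKM on PLLA/ZnO -US, and the groups overlapped. Tgfbr3 and Tgfbr1 were split within the collagen group. Tgfbr3 had 21.1, 66.4 and 13.4 FPKM on PLLA/ZnO@Col -US, against 41.5, 34.8 and 42.0 FPKM on PLLA/ZnO -US, and Tgfbr1 had 2.55, 12.5 and 1.78 FPKM, against 5.61, 6.81 and 5.39 FPKM. For both receptors the 2 Y-poor libraries lay below every PLLA/ZnO -US library and replicate 2 lay above. The fitted direction of Tgfbr3 therefore turned with the libraries used, at -0.22 over all, -1.13 without replicate 2 (adjusted p = 0.0198) and 0.72 without the Y-poor libraries. Smad7 had 4.60, 8.64 and 3.64 FPKM on PLLA/ZnO@Col -US, against 4.80, 4.28 and 4.75 FPKM on PLLA/ZnO -US, with the same single high library. Its log2 fold change was 0.31 over all libraries and 0.88 without the Y-poor ones, where edgeR's adjusted p was 0.0302 and 67 genes were called higher and 99 lower.

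Against plain PLLA without ultrasound, PLLA/ZnO@Col again had more Tgfb1, with the 3 values above against 7.11, 8.05 and 6.57 FPKM on PLLA -US. These groups did not overlap either, and the log2 fold change was 0.81 with an SE of 0.16 (edgeR adjusted p = 0.14). DESeq2 gave an adjusted p of 0.00372. Without the Y-poor libraries, which leaves 1 PLLA/ZnO@Col -US library, edgeR gave a log2 fold change of 0.67. This comparison shares the PLLA/ZnO@Col -US libraries with the one before. Tgfbr2 was lower in every PLLA/ZnO@Col library than in every PLLA library, with 24.8, 30.9 and 26.9 FPKM on PLLA -US and a log2 fold change of -0.38 (SE 0.15, edgeR adjusted p = 0.351). In the reported edgeR fit no member was called here, as 0% of all genes were, and 2 of 9 passed an unadjusted p under 0.05, against 12.0% of all genes. DESeq2 called 78 genes higher and 86 lower, Tgfb1 among them. Once replicate 2 of PLLA/ZnO@Col -US was left out, edgeR had 1258 genes higher and 524 lower, with Tgfb1 and Tgfbr3 among them.

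With ultrasound, the members nearest to a difference between the collagen membrane and PLLA/ZnO were Smad3, Ltbp1 and Smad7. Smad3 had 22.6, 24.7 and 25.1 FPKM on PLLA/ZnO@Col +US, against 15.5, 16.8 and 20.5 FPKM on PLLA/ZnO +US, with no overlap. Its log2 fold change was 0.49 with an SE of 0.15 and an unadjusted p of 0.00561. Ltbp1 had 48.4, 57.2 and 62.7 FPKM on PLLA/ZnO@Col +US, against 39.9, 41.6 and 42.2 FPKM on PLLA/ZnO +US. Those groups did not overlap, and the log2 fold change was 0.48 with an SE of 0.16. The edgeR adjusted p was 0.415 for both genes. Without the 4 Y-reduced libraries, which leaves PLLA/ZnO@Col +US replicate 1 alone, Smad3 kept a log2 fold change of 0.53 and Ltbp1 one of 0.30. Smad7 had 4.00, 8.61 and 8.61 FPKM on PLLA/ZnO@Col +US, against 4.23, 5.05 and 4.25 FPKM on PLLA/ZnO +US. The Y-poor library was low and the 2 Y-reduced ones high, and the log2 fold change of 0.68 (SE 0.28, edgeR adjusted p = 0.473) became -0.16 without the Y-reduced libraries. The call rate was 0% of all genes and no member, and 3 of 9 members had an unadjusted p under 0.05, against 9.43% of all genes.

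None of the other members had an unadjusted p under 0.05 in this comparison. Tgfbr1 had 3.01, 1.80 and 2.54 FPKM on PLLA/ZnO@Col +US, against 5.71, 6.23 and 1.03 FPKM on PLLA/ZnO +US, and the groups overlapped through the low Y-reduced replicate 3 of PLLA/ZnO +US. The log2 value for Tgfbr1 was -0.79 with an SE of 0.64 (edgeR adjusted p = 0.723). Tgfb3 lay above every PLLA/ZnO +US library on PLLA/ZnO@Col +US, with 30.3, 25.9 and 26.5 FPKM, against 21.5, 22.5 and 24.0 FPKM. Tgfb1 had 13.2, 10.2 and 9.36 FPKM on PLLA/ZnO@Col +US, against 7.70, 8.09 and 10.9 FPKM on PLLA/ZnO +US, so the groups overlapped. Its log2 fold change was 0.34 with an SE of 0.16 (edgeR adjusted p = 0.539), 0.79 without the Y-reduced libraries and 0.13 without the Y-poor ones. Against PLLA +US, with 6.94, 7.67 and 9.40 FPKM of Tgfb1, the log2 fold change on PLLA/ZnO@Col +US was 0.54 with an SE of 0.16 (edgeR adjusted p = 0.561). Leaving out PLLA/ZnO@Col +US replicate 1 lowered it to 0.36, and over all the alternative fits it ran from 0.35 to 0.91. Smad3 was 0.37 higher on the log2 scale (SE 0.15, same adjusted p), and the groups overlapped through PLLA +US replicate 3. Ltbp1 was 0.28 higher (SE 0.16, same adjusted p), and its groups overlapped through the same library. The least abundant ligand, Tgfb2, had 1.14, 0.710 and 1.03 FPKM on PLLA/ZnO@Col +US, against 1.56, 1.25 and 1.63 FPKM on PLLA +US. Tgfb2 had a log2 fold change of -0.54 with an SE of 0.26 (edgeR adjusted p = 0.561), and it was -0.23 without the Y-reduced libraries. Tgfbr1 had 3.01, 1.80 and 2.54 FPKM on PLLA/ZnO@Col +US, against 5.89, 6.22 and 3.14 FPKM on PLLA +US, with a log2 fold change of -0.99 and an SE of 0.65 (edgeR adjusted p = 0.572). In both genes every PLLA/ZnO@Col library was below every PLLA library. Of the members, 2 of 9 had an unadjusted p under 0.05, against 8.55% of all genes, and neither a member nor any other gene, 0%, was called.

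**Figure D3:**
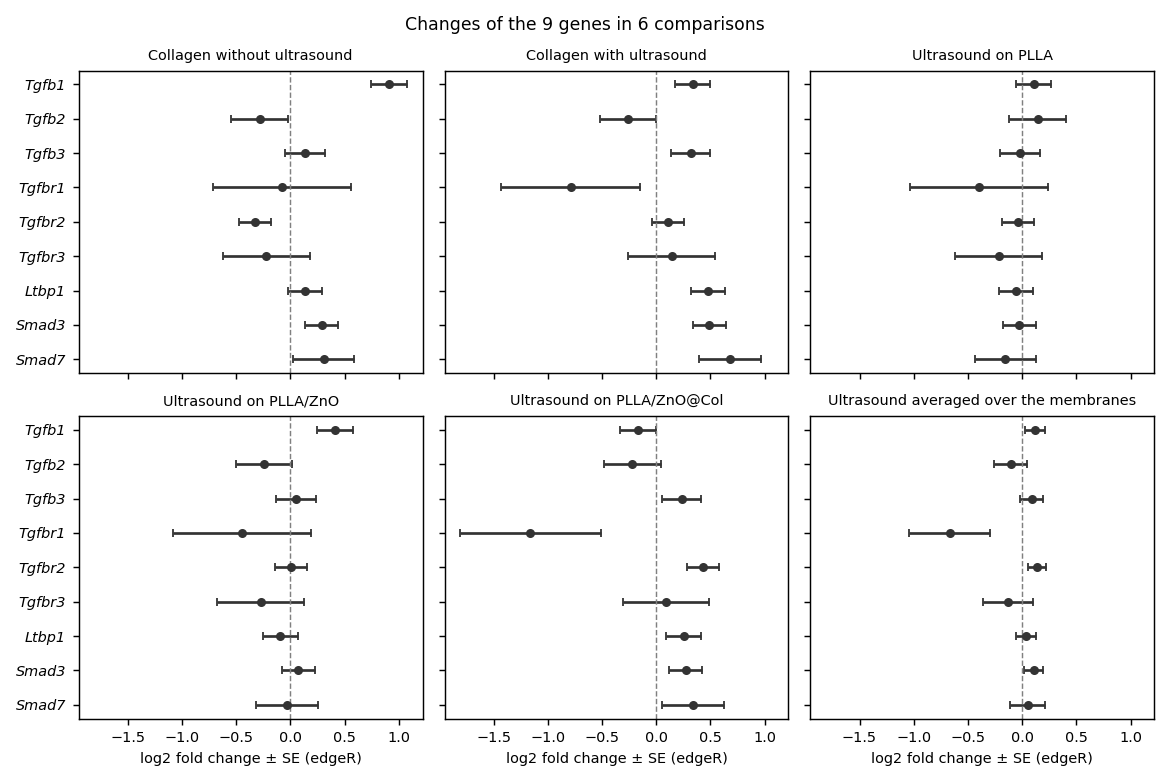
Log2 fold change (points) with its SE (bars) of each gene in 6 comparisons, from edgeR's quasi-likelihood fit. A value right of 0 is higher on PLLA/ZnO@Col than on PLLA/ZnO (collagen panels) or with ultrasound than without (ultrasound panels). Tgfb1 in the collagen comparison without ultrasound lies farthest from 0 relative to its SE, at 0.91, and Tgfbr1 has the widest bars.

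Daily ultrasound was compared with no ultrasound on each membrane. On PLLA/ZnO@Col, the difference nearest to the threshold among the members was in Tgfbr2, with 26.3, 26.9 and 29.6 FPKM under +US, against 22.0, 20.5 and 18.7 FPKM under -US. The groups did not overlap, and the log2 fold change was 0.44 with an SE of 0.15 and an unadjusted p of 0.00956. The edgeR adjusted p was 0.525, and no member and 0% of all genes were called. At an unadjusted p under 0.05, 1 of 9 members passed, against 8.18% of all genes. Without the Y-poor libraries the value was 0.50, and without the Y-reduced ones 0.39. Tgfbr1, the type I receptor kinase, had 3.01, 1.80 and 2.54 FPKM under +US, against 2.55, 12.5 and 1.78 FPKM under -US. Its log2 fold change of -1.16 (SE 0.65) rested on the single high library and was 0.13 without it, and it was -2.48 without the Y-poor libraries. Tgfb1 had 13.2, 10.2 and 9.36 FPKM under +US, against 11.2, 11.6 and 14.1 FPKM under -US, and the groups overlapped.

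On PLLA/ZnO, Tgfb1 was the only member with an unadjusted p under 0.05, 1 of 9 against 3.24% of all genes. Its levels were 7.70, 8.09 and 10.9 FPKM under +US, against 7.005, 6.71 and 6.34 FPKM under -US, without overlap. The log2 fold change was 0.41 with an SE of 0.16 (edgeR adjusted p = 0.937), and it was 0.24 without PLLA/ZnO +US replicate 3, the Y-reduced library of that group. Ltbp1 was lower in every +US library, with 39.9, 41.6 and 42.2 FPKM, against 42.3, 45.1 and 44.5 FPKM under -US, a narrow gap. On PLLA, no member had an unadjusted p under 0.05, against 0.436% of all genes. No member was called on either membrane, as were 0% of all genes. The test of the difference between the ultrasound contrasts of PLLA/ZnO@Col and PLLA/ZnO gave Tgfb1 a log2 value of -0.58 with an SE of 0.23, and edgeR's adjusted p was 0.999. The value was -0.12 without the Y-reduced libraries. Of the members, 1 of 9 had an unadjusted p under 0.05 for that difference, against 2.20% of all genes, and 0 of 9 for the difference between PLLA/ZnO and PLLA, against 0.385%. In both tests of differences 0% of genes were called. Averaged over the 3 membranes, ultrasound gave no member an unadjusted p under 0.05, against 12.1% of all genes, and 0% were called by edgeR. Without the Y-poor libraries, which leaves 1 PLLA/ZnO@Col -US library, Tgfbr3 had a log2 fold change of -0.36 in that average.

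Zinc oxide in the membrane, PLLA/ZnO against PLLA, gave no member a call. Without ultrasound, Smad3 had 17.7, 15.2 and 17.3 FPKM on PLLA/ZnO -US, against 20.0, 20.4 and 18.3 FPKM on PLLA -US. Smad7 had 4.80, 4.28 and 4.75 FPKM on PLLA/ZnO -US, against 5.45, 5.67 and 5.10 FPKM on PLLA -US. Neither gene overlapped between these groups, a description without the share over all genes. With ultrasound, Ltbp1 had 39.9, 41.6 and 42.2 FPKM on PLLA/ZnO +US, against 45.6, 46.3 and 54.7 FPKM on PLLA +US. Tgfbr3 had 31.3, 37.9 and 28.7 FPKM on PLLA/ZnO +US, against 43.1, 40.0 and 42.6 FPKM on PLLA +US. In both genes every PLLA/ZnO library was below every PLLA library. None of these differences reached an unadjusted p under 0.05, which 0 of 9 members did in either setting, against 1.19% of all genes without and 1.27% with ultrasound. No member and 0% of genes were called in both.

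Tgfbr1 and Tgfbr3 differed widely between libraries of 1 group. Tgfbr1 was lowest, at 1.03 FPKM, in PLLA/ZnO +US replicate 3, whose other replicates had 5.71 and 6.23 FPKM, and highest, at 12.5 FPKM, in PLLA/ZnO@Col -US replicate 2. Those libraries also had the lowest and the highest share of counts from mitochondrial genes, 1.57% and 4.54%. In PLLA +US, replicate 3 had 3.14 FPKM of Tgfbr1 at a mitochondrial share of 1.87%, and replicates 1 and 2 had 5.89 and 6.22 FPKM at 2.63% and 4.23%. The part of that share in the Tgfbr1 values was not tested. Tgfbr3 followed another split, with its lowest levels, 21.1, 13.4 and 22.3 FPKM, in the 3 Y-poor libraries. Tgfb1 was at 11.2, 14.1 and 13.2 FPKM in those 3 libraries, and at 11.6 FPKM in PLLA/ZnO@Col -US replicate 2. It was highest within PLLA/ZnO +US and within PLLA +US in replicate 3, at 10.9 and 9.40 FPKM, the libraries of those groups with reduced Y-linked reads. The part of these splits in the Tgfbr3 and Tgfb1 values was not tested.

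**Figure D4:**
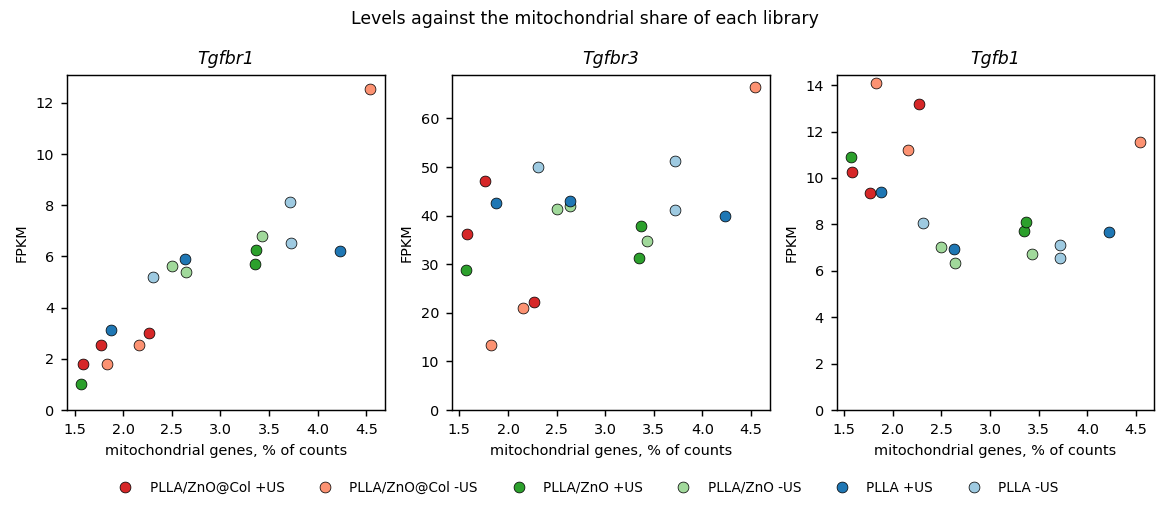
Level of Tgfbr1, Tgfbr3 and Tgfb1 in FPKM against the percentage of each library's counts in mitochondrial genes, 1 point per library, coloured by group. Tgfbr1 runs from 1.03 FPKM at 1.57% to 12.5 FPKM at 4.54%, and Tgfb1 is at 10.9 and 11.6 FPKM in those libraries.

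Over the 18 libraries, some members varied together, which is given as a description of libraries that share depth and the splits above. On TMM-scaled log2 CPM, Pearson's r was 0.81 between Ltbp1 and Smad3, 0.79 between Ltbp1 and Smad7, and 0.77 between Tgfb2 and Tgfbr1. Tgfb3 and Tgfbr1 ran opposite, with an r of -0.68 over the 18 libraries and of -0.62 within groups, as deviations from the group means. Within groups, Tgfbr3 and Smad7 had an r of 0.90. The genes most like each member over the same 18 libraries were, for Tgfb1, the creatine transporter Slc6a8 (0.95), Gnpda1 (0.95) and Pip4k2c (0.94). For Tgfbr2 they were the collagen-binding integrin subunit Itga11 (0.91), the collagen V chain Col5a1 (0.91) and the basement membrane protein Nid2 (0.90). For Tgfbr3 the nearest was thrombospondin 1, Thbs1 (0.98), followed by Lrp12 and Arel1. For Tgfbr1 they were Alg11, Prkar2b and Gxylt1 (0.99, 0.98 and 0.98). Ltbp1 was most like Mfhas1 (0.91), Smad3 like Atp6v0a2 (0.95), Smad7 like Cdr2l (0.92) and Tgfb3 like Txnip (0.92).

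Beyond the members, 96 other genes of the pathway were listed by role, and 80 of the 95 in the table were tested. The reported edgeR fit called none of them in any comparison, as it called 0% of all genes. At an unadjusted p under 0.05, between 7 and 15 of the 80 passed in each comparison that involves the collagen membrane. For collagen, 14 passed without ultrasound (12.9% of all genes) and 12 with it (9.43%). Against PLLA, 12 passed without ultrasound (12.0%) and 8 with it (8.55%). For ultrasound, 15 passed on PLLA/ZnO@Col (8.18%) and 10 averaged over the membranes (12.1%). For the difference between the ultrasound contrasts of PLLA/ZnO@Col and PLLA/ZnO, 7 passed (2.20%). Calls appeared under other settings, and these genes are named after their values were seen. DESeq2 called 6 for collagen without ultrasound, with Ccn2, Ltbp4, Mmp14 and Ski higher and Itga11 and Scx lower, and 1 against PLLA without ultrasound, Itga11, which was lower. Over all 11936 genes it called 256 higher and 151 lower for collagen, and 78 higher and 86 lower against PLLA. With replicate 2 of PLLA/ZnO@Col -US left out, edgeR called 10 of the 80 listed genes in each of these comparisons, 7 higher and 3 lower. Of all 11936 genes, that fit called 657 higher and 382 lower for collagen, and 1258 higher and 524 lower against PLLA. Without the Y-poor libraries, PLLA/ZnO@Col -US is left with replicate 2 alone. For the listed genes past the threshold there, only log2 fold changes are therefore given. For collagen without ultrasound they were 1.39 for Dcn, 0.77 for Tgif1, -1.34 for Acta2 and -1.65 for Tagln. Against PLLA they were 1.71 for Dcn and -1.45 for Acta2. For ultrasound on PLLA/ZnO@Col they were 1.68 for Acta2, 1.14 for Col1a1, 1.74 for Tagln, 0.86 for Tgfb1i1 and -2.99 for Dcn. For the difference of the ultrasound contrasts, PLLA/ZnO@Col minus PLLA/ZnO, the value was -2.51 for Dcn. Ultrasound averaged over the membranes also had such genes, in both directions, among them Acta2 at 0.65 and Dcn at -1.21. The others of that average are not named here. Tagln, an actin-binding protein of contractile cells, turned with the libraries used: for collagen without ultrasound its log2 fold change was 1.44 without replicate 2 and -1.65 without the Y-poor libraries. Between PLLA/ZnO@Col -US and PLLA/ZnO -US, 15 of 18 inhibitors and feedback genes had a positive log2 fold change, with a median of 0.24, against 54.98% of all genes and a median of 0.04. Of the receptors, co-receptors and signal carriers 13 of 14 were positive, of the latency and activation genes 11 of 18, and of the target genes 15 of 30, with medians of 0.12, 0.07 and 0.01. Against PLLA -US, the same PLLA/ZnO@Col -US libraries had only 3 of 14 receptors, co-receptors and signal carriers positive, with a median of -0.12. The inhibitors and feedback genes were positive there in 11 of 18, the latency and activation genes in 8 of 18 and the targets in 17 of 30. Of all genes, 51.4% were positive against PLLA -US. Among the targets, Ccn2, a matricellular growth factor long used as a TGF-beta readout, had 16.1, 4.60 and 9.23 FPKM on PLLA/ZnO@Col -US, against 3.71, 4.50 and 3.20 FPKM on PLLA/ZnO -US. Its log2 fold change was 1.44 with an SE of 0.33 (edgeR adjusted p = 0.0956), and the 2 Y-poor libraries were far above the third, so the value without them was 0.25. The integrin subunit Itga11 and the tendon transcription factor Scx, also on the target list, lay the other way. Itga11 had 15.4, 14.0 and 11.9 FPKM on PLLA/ZnO@Col -US, against 28.6, 16.1 and 39.2 FPKM on PLLA/ZnO -US, and Scx had 1.35, 2.09 and 1.67 FPKM, against 4.29, 4.33 and 2.98 FPKM. Neither gene overlapped between the groups, and the log2 fold changes were -0.99 and -1.15 (edgeR adjusted p = 0.123 and 0.127). The direction of target genes was thus mixed. Ltbp4, another latent binding protein, had a log2 fold change of 0.78 (SE 0.21), and Ski, a nuclear repressor of Smads, 0.49 (SE 0.14), with edgeR adjusted p of 0.124 and 0.164.

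With ultrasound, 13 of 18 latency and activation genes were positive on PLLA/ZnO@Col against PLLA/ZnO, with a median of 0.33, against 50.4% of all genes and a median of 0.00299. Inhibitors and feedback genes were positive in 15 of 18, targets in 19 of 30 and receptors and carriers in 8 of 14, with medians of 0.10, 0.08 and 0.12. Mmp14, a membrane protease that can release latent TGF-beta, had 79.2, 65.9 and 64.0 FPKM on PLLA/ZnO@Col +US, against 47.3, 49.0 and 55.5 FPKM on PLLA/ZnO +US. These did not overlap, and the log2 fold change was 0.50 with an SE of 0.13 (edgeR adjusted p = 0.39). Furin, the protease that cuts the TGF-beta precursor, and Ltbp3, a latent binding protein, also lay apart, at log2 values of 0.43 and 0.45. Ccn2 had 12.3, 7.65 and 8.99 FPKM on PLLA/ZnO@Col +US, against 3.87, 4.47 and 4.22 FPKM on PLLA/ZnO +US. Here all 3 libraries were high, and the log2 fold change was 1.24 with an SE of 0.33 (edgeR adjusted p = 0.404). Periostin (Postn), a matrix protein on the same list, was low instead, with 12.0, 10.5 and 13.9 FPKM, against 39.7, 41.7 and 14.5 FPKM, and the Y-reduced PLLA/ZnO +US replicate 3 was the low one.

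Under ultrasound against none on PLLA/ZnO@Col, 15 of 18 latency and activation genes and 20 of 30 targets were positive, with medians of 0.20 and 0.22, against 47.1% of all genes and a median of -0.03. Of the receptors and carriers 6 of 14 were positive, with a median of -0.07, and of the inhibitors and feedback genes 9 of 18, with a median of -0.03. The inhibitor Smad6 had 3.64, 4.47 and 4.87 FPKM under +US, against 3, 2.65 and 2.57 FPKM under -US. Itga11 had 19.2, 28.6 and 30.4 FPKM under +US, against 15.4, 14.0 and 11.9 FPKM under -US, and Col5a1 had 93.4, 105 and 111 FPKM, against 76.7, 70.8 and 68.0 FPKM. All 3 genes lay apart without overlap, and the edgeR adjusted p was 0.525 for each, at log2 fold changes of 0.66, 0.92 and 0.52. The matrix proteoglycan decorin (Dcn), which binds TGF-beta, had 12.2, 2.89 and 2.76 FPKM under +US, against 10.2, 23.2 and 11.5 FPKM under -US. The Y-poor +US library was the high one of its group, and without the Y-poor libraries the log2 fold change of -1.30 became -2.99 (with 1 library under -US). Without the Y-reduced libraries, among them the low ones of that +US group, it became -0.26. For zinc oxide without ultrasound, all 14 receptors, co-receptors and carriers had a negative value, with a median of -0.27, against 48.9% positive among all genes. With ultrasound, 13 of the 14 were negative for zinc oxide, with a median of -0.23, against 46.15% positive among all genes. None had an unadjusted p under 0.05 in either setting.

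**Figure D5:**
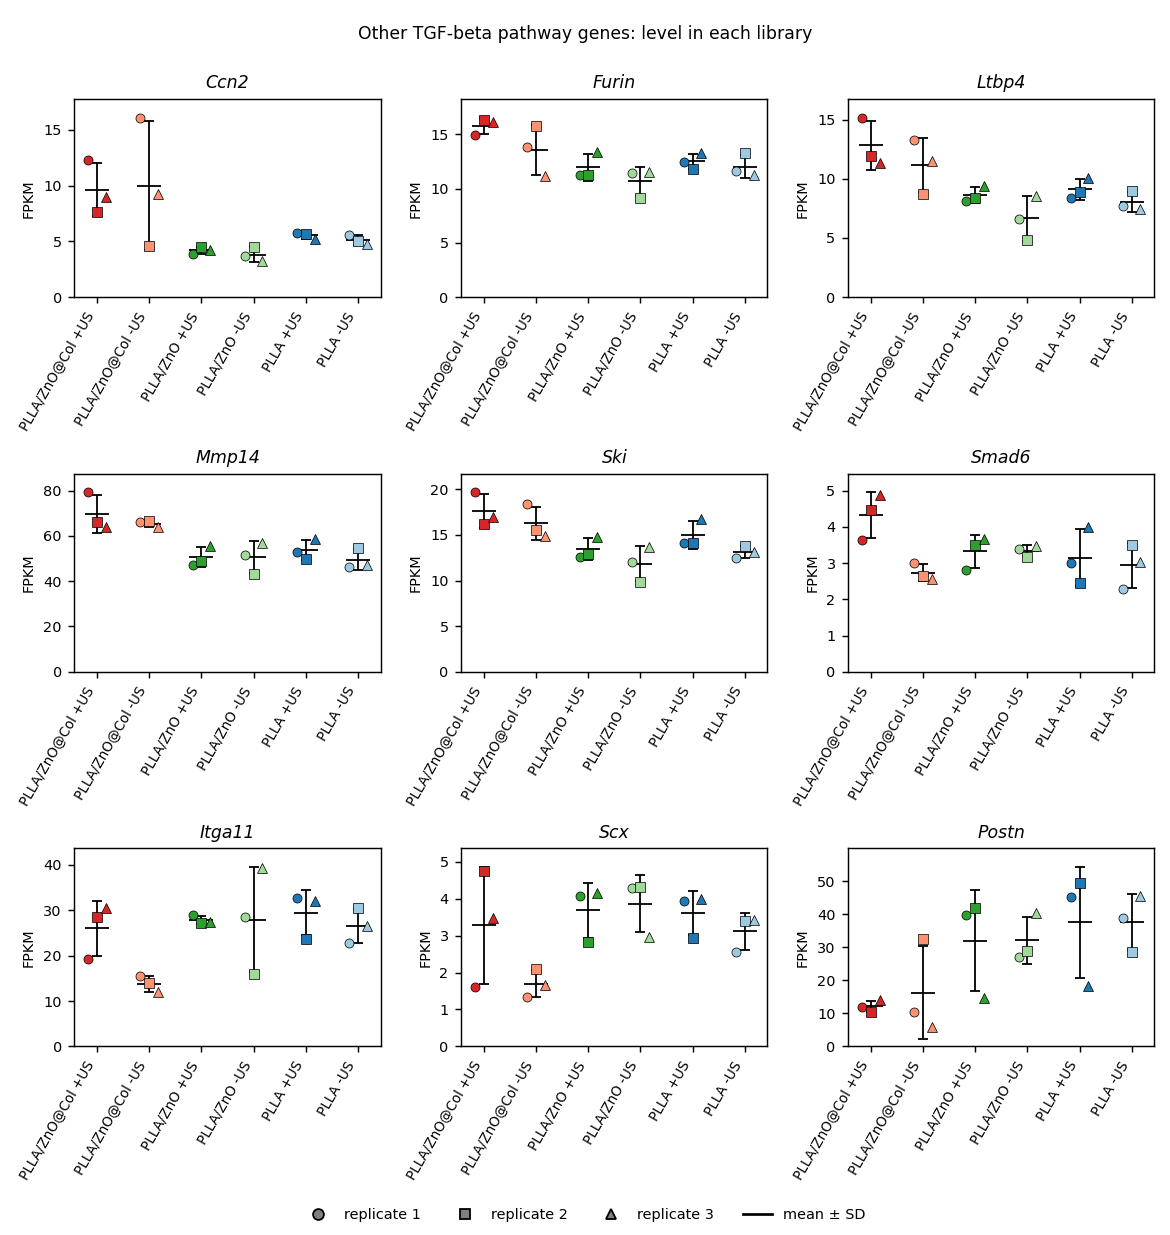
Level of 9 other genes of the pathway in every library, in FPKM on linear axes, drawn as for the members, with the mean ± SD of 3 libraries as black bars. Ccn2 is high in all 3 PLLA/ZnO@Col +US libraries, at 7.65 to 12.3 FPKM, and in 2 of 3 PLLA/ZnO@Col -US libraries, and Itga11 is lowest on PLLA/ZnO@Col -US, at 11.9 to 15.4 FPKM.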

How the data were processed

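The authors deposited, for 18 libraries, whole-number counts per gene and FPKM values, per the file headers. Per the submitters' processing notes, the tools were cutadapt 1.9 and FastQC and the build was GRCm38. Aligner, counter and strand setting: not given in the sources used here, so reads of genes that overlap a member on the other strand may be counted with it. Groups and replicate numbers came from the sample titles. The 9 members, the 4 lists of other pathway genes, the marker lists and the tests were chosen with earlier results of these data known.

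Counts were tested with edgeR 4.0.16 in R 4.3.3 (TMM scaling, quasi-likelihood F-test, two-sided, 1 fit over 6 groups, 12 residual degrees of freedom). Genes needed an FPKM of at least 1 in at least 3 libraries. Benjamini-Hochberg adjustment ran over 11936 genes in each comparison, at a threshold of 0.05. The SE is the log2 fold change over the root of F. FPKM values served for levels and for the overlap of groups. Overlap was looked up for the members and the listed genes, not for all genes, so it is a description and not a test. The common biological coefficient of variation was 0.28. By rule the 9 members are named whether called or not; from each list up to 3 genes with the smallest p are named, and for each member up to 3 of the genes of highest Pearson correlation. Values of some listed or correlated genes are not reported here.

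Alternatives were DESeq2 1.42.0, limma 3.58.1 on log2(FPKM + 1) and log2(FPKM + 0.1), other scalings and filters, a replicate block, only the libraries compared, each library left out in turn, and fits without the Y-poor or the Y-reduced libraries. The fit was also run on simulated counts with known changes. Those counts held none of the splits between libraries described above, so that run cannot show how the fit behaves under them. Replicates of a group differed by more than sampling noise, with a chi-square per degree of freedom of at least 15.8. Replicate numbers were taken to pair groups where the deviations of all 3 same-numbered pairs correlated above 0.1. Among the groups compared this held for PLLA/ZnO +US with PLLA +US, at 0.56, 0.55 and 0.73. With the replicate block, edgeR called no gene there, as without it.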

Additional observations from a re-analysis of the deposited data

How the results depend on the processing

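The 9 members were refitted 1971 times over 29 settings in 108 pairs of gene and comparison. The sign differed from the reported one in 128 refits, and 8 refits called a member. Counts of members called, 0 in every comparison as reported, changed in 3 comparisons. For PLLA/ZnO@Col against PLLA/ZnO without ultrasound the count was 1 with DESeq2 (Tgfb1). It was 0 to 2 with each library left out, the 2 being Tgfb1 and Tgfbr3 without PLLA/ZnO@Col -US replicate 2. Without the Y-poor libraries the count also changed through Smad7, whose log2 fold change of 0.88 there rested on 1 PLLA/ZnO@Col -US library. Against PLLA without ultrasound it was 1 with DESeq2 and 0 to 2 with each library left out. For ultrasound averaged over the membranes it changed only without the Y-poor libraries, through Tgfbr3 (-0.36), again with 1 PLLA/ZnO@Col -US library. Of the 11936 genes tested, the count called was 0 in the reported fit of every comparison. For collagen without ultrasound it was 256 higher and 151 lower with DESeq2, 657 higher and 382 lower without PLLA/ZnO@Col -US replicate 2, and 67 higher and 99 lower without the Y-poor libraries. Against PLLA without ultrasound it was 78 higher and 86 lower with DESeq2, 1258 higher and 524 lower without that replicate, and 22 higher and 20 lower without the Y-poor libraries. For collagen with ultrasound DESeq2 called 34 higher and 13 lower, and in the other comparisons at most 4 in either direction. Without the Y-poor libraries, ultrasound on PLLA/ZnO@Col had 70 higher and 41 lower, and ultrasound averaged over the membranes 737 higher and 307 lower. Without PLLA/ZnO@Col +US replicate 1, ultrasound on that membrane had 30 higher and 8 lower.

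Directions turned as follows, and the cause was not tested. Without the Y-poor libraries, log2 fold changes for collagen without ultrasound became -0.060 for Hgs and 0.72 for Tgfbr3, and that of Tgfbr3 against PLLA became 0.47. Without the Y-reduced libraries, they became -0.071 for Plau and -0.046 for Scx under ultrasound on PLLA/ZnO@Col, -0.16 for Smad1 and -0.16 for Smad7 for collagen with ultrasound, and -0.32 for Smad7 against PLLA with ultrasound. With each library left out, Smad7 for collagen without ultrasound ran from -0.10 to 0.54, Tgfbr3 from -1.13 to 0.16, Tgfbr3 under averaged ultrasound from -0.23 to 0.16, and Tgfbr1 under ultrasound on PLLA/ZnO@Col from -1.57 to 0.13. Leaving out PLLA/ZnO@Col -US replicate 1 gave Tgfbr3 0.0036.

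Tgfb1 for collagen without ultrasound stayed between 0.76 and 0.98, with adjusted p from 0.000181 to 0.529. Correlations of same-numbered deviations ran from -0.51 to 0.73 over all pairs of groups, and exceeded 0.1 in all 3 pairs only for PLLA/ZnO +US with PLLA +US. With the replicate block neither a member nor any other gene was called in any comparison, and Tgfb1 for collagen without ultrasound was 0.91 (adjusted p = 0.0774). Tgfb2 and Tgfbr1 rest on as few as 257 and 381 counts in a library.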
